A study of Petunia x hybrida with 9 samples.

Results

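Histone genes were taken as every locus of the petunia corolla transcriptome whose closest tomato protein was described as histone H1, H2A, H2B, H3 or H4. The rule gave 126 of 94534 loci, made up of 23 loci for H1, 24 for H2A, 31 for H2B, 34 for H3 and 14 for H4. A further 2 loci whose description opened the same way named a subunit of a histone methyltransferase complex and were left out. The 126 loci came from 62 assembled genes and matched 24 tomato proteins, so several loci are alternative assemblies of 1 gene and share reads. Loci are named by the identifier of the expression table, and tomato proteins by the identifier of the match table.

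DNA in the nucleus is wound around a protein core of histones H2A, H2B, H3 and H4, and histone H1 binds the linker DNA between the cores. Plants carry several genes for each type, and their histone messages are polyadenylated. Part of the histone supply is made while DNA is copied, and part is made in cells that no longer divide, where it replaces histones lost during transcription and chromatin remodelling. The corolla is the ring of petals, and in petunia its cells have mostly stopped dividing and grow by expansion by the time the flower opens.

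RNA was taken from corollas of Petunia x hybrida cv. Mitchell at 20:00 h on day 2 after anthesis, with at least 8 corollas pooled per sample, and plants kept in a greenhouse with light from 6 AM to 9 PM. There were 3 groups of 3 libraries: wild type, and 2 lines, A4 and A9, described as overexpressors of a site-directed mutant of PhADT, the petunia arogenate dehydratase, which makes phenylalanine from arogenate. The label R353A for the mutation stands on all 9 samples, wild type included. The labels give neither the promoter of the transgene nor whether the replicates came from separate plants, and a p-value therefore reflects only how these samples vary, which may be technical. The deposited unit is FPKM: fragment counts divided by locus length in kilobases and by library size.

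Estimated depth was between 30600000 and 43100000 fragments a library. The label of A4 was not matched by the rise of a dehydratase locus that was seen in A9. Locus XLOC_018770 stood at 0.980, 0.952 and 0.991 FPKM in the wild type and at 1.02, 1.23 and 1.14 FPKM in the A4-labelled libraries. In A9 it stood at 39.8, 31.5 and 38.1 FPKM. The labels do not say whether this locus is that of the transgene. The 19 dehydratase loci together were lower in the A4-labelled libraries (2091 to 2407 FPKM) than in wild type (2913 to 4039 FPKM), and those libraries are named by their label below. Wild-type libraries listed more loci at 0 (1881 to 2078) than the A4-labelled ones (633 to 976) or A9 (888 to 1147), while at most 1 histone locus was at 0 in any library. The FPKM of all loci summed to 799739 to 835669 in wild type, 735579 to 767368 in the A4-labelled libraries and 772973 to 812415 in A9. In bulk tissue, fewer cells of a type and less RNA per cell cannot be told apart.

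The 5 types differed in how close they were to tomato. Median identity to the matched protein was 100% for H2B, H3 and H4 loci, 95.9% for H2A loci and 68.3% for H1 loci, beside 82.5% over the 79813 loci of the whole table with a match. No H1 locus reached 95% identity, against 16 of 24 for H2A, 30 of 31 for H2B, 24 of 34 for H3 and 13 of 14 for H4. The weakest members were an H1 locus at 44.9% and the H3 locus XLOC_092019, which matched over 43 residues at 65.1%. The descriptions name no replication-linked, replacement or centromeric variant, so none is assigned here. Of the 126 loci, 101 averaged 1 FPKM or more across all 9 libraries and entered the test. These were 20 for H1, 22 for H2A, 26 for H2B, 20 for H3 and 13 for H4, and the 14 H3 loci below that level made up most of the 25 that were not tested.

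Histone messages held between 0.550% and 0.857% of all FPKM in a library. Linker histone H1 had the highest summed level, which in wild type was 2309, 1900.5 and 1777 FPKM in replicates 1 to 3 (1995 ± 278 FPKM, SD, n = 3, as for every mean below). H3 followed at 1125 ± 100.1 FPKM, H2A at 942 ± 48.8 FPKM, H2B at 556 ± 43.8 FPKM and H4 at 471 ± 54.1 FPKM. H2B and H4 were neighbours whose wild-type libraries overlapped, with 507 to 589.7 FPKM for H2B and 409 to 509 FPKM for H4, while the other neighbours in this order did not overlap. The H1 total rested on XLOC_002919 and XLOC_002918, which are only 435 and 315 bases long, so that their FPKM leans on the length correction. Without them the remaining 21 H1 loci summed to 754 ± 80.7 FPKM in the wild type, below H3 and H2A.

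Summed by type, the mean of the A4-labelled libraries was lowest and that of A9 highest for H1, H2A, H3 and H4, while for H2B the A4-labelled libraries had the highest mean. The FPKM of all loci was also lower in the A4-labelled libraries. As a share of it, H4 averaged 0.0584% there and 0.0574% in wild type. All histones together averaged 0.614% in the A4-labelled libraries, 0.620% in wild type and 0.743% in A9. H4 summed to 496, 509 and 409 FPKM in the wild type, 443, 418 and 455 FPKM in the A4-labelled libraries, and 723, 561 and 579 FPKM in A9. All 3 A9 libraries thus lay above all 6 others for H4. H2A summed to 955, 983 and 888 FPKM in the wild type, 777, 786 and 836 FPKM in the A4-labelled libraries, and 1086, 953 and 1052 FPKM in A9. Here the A4-labelled libraries lay below every other library, and A9 overlapped wild type. As a share of all FPKM, however, H2A in the A4-labelled libraries (0.105% to 0.109%) overlapped wild type (0.106% to 0.119%). H2B went the other way: it summed to 573, 589.7 and 507 FPKM in the wild type, 628, 659 and 766 FPKM in the A4-labelled libraries, and 648, 584 and 559 FPKM in A9. For H2B the A4-labelled libraries lay above wild type and overlapped A9. H3 summed to 1125 ± 100.1 FPKM, 989.7 ± 71.6 FPKM and 1192 ± 88.5 FPKM in the wild type, the A4-labelled libraries and A9, and H1 to 1995 ± 278 FPKM, 1697 ± 92.3 FPKM and 2486 ± 576 FPKM. For both, each line overlapped wild type, and the A4-labelled libraries lay below those of A9. The wide H1 spread in A9 came from replicate 1, at 3142 FPKM beside 2064 and 2251 FPKM. These sums are descriptions and were not tested.

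**Figure D1:**
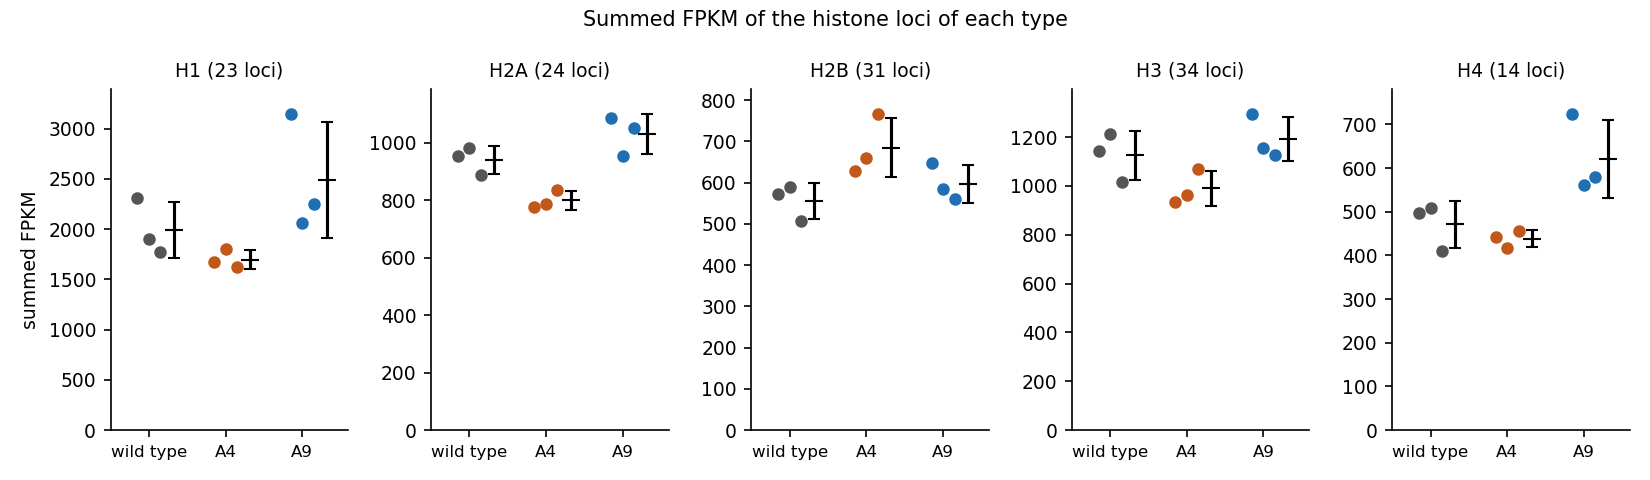
Summed FPKM of the loci of each histone type (vertical axes, linear and starting at 0) in wild type, A4 (as labelled) and A9. Points are the 3 libraries of a group in replicate order, and the bar beside them is the mean with its SD. The A9 libraries stand highest for H4 (561 to 723 FPKM), the A4 libraries lowest for H2A (777 to 836 FPKM), and for H2B the A4 libraries (628 to 766 FPKM) lie above wild type.

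Each line was compared with wild type to see which histone loci differed with it. Differences are in log2(FPKM + 1), a scale on which low loci change less than in FPKM, and come with a standard error (SE). A locus was called where the limma p, adjusted by Benjamini-Hochberg over all 53284 loci tested, was under 0.05. Both comparisons share the wild-type libraries. In A9, 23 of the 101 measured histone loci rose (22.8%), where 8.98% of all loci tested rose. None of the 101 fell by this limma test, where 10.3% of all loci fell. At an unadjusted p under 0.05, 36 histone loci were higher and 2 lower, and 1 fall was called with quantile normalization and 1 with the replicate block. The rises were spread over H3 (8 of 20), H4 (5 of 13), H1 (4 of 20), H2A (4 of 22) and H2B (2 of 26), and lay in 13 assembled genes. Of these rises, 6 for H3, 4 for H1 and 3 for H4 each lay in 1 assembled gene, whose loci share reads. Summed per assembled gene, 9 of 55 rose and none fell. No share over all genes is given for this unit, so the count cannot be set against a background. Of the 101 loci, 8 averaged under 1 FPKM in A9 or in wild type, and 4 of the 23 rises were among them (XLOC_092019, XLOC_044916 and XLOC_044920 for H3, XLOC_033113 for H4). These 4 entered the test only through the groups where they were high, so they are described and not counted as support, which leaves 19 rises. The share of 22.8% still includes them. With replicate numbers as a block, 6 H2B loci were called in A9 in place of 2. The count of 23 was 12 when wild-type replicate 2 was left out, 15 when wild-type replicate 3 was, and 14 when A9 replicate 1 or 3 was. Of the 14 without A9 replicate 1, 1 was a fall.

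In the A4-labelled libraries, 7 of 101 histone loci rose (6.93%), where 15.6% of all loci rose, and 12 fell (11.9%), where 16.6% of all loci fell. These shares were lower than the background, and 11 of the 19 calls were H2B loci. H1 had no call among 20 loci at the adjusted threshold, with 2 lower at an unadjusted p under 0.05. H2A had 1 rise and 2 falls, H3 had 2 of each and H4 had 1 rise. Both H3 rises were of loci under 1 FPKM in wild type (XLOC_092019 and XLOC_044916), which leaves 5 rises without them. Without A4 replicate 2, 12 calls were made in place of 19. For the mean of both lines, 14 loci rose (13.9%) and 8 fell (7.92%), where 14.2% of all loci rose and 15% fell. The 14 include XLOC_092019 and XLOC_033113, which averaged under 1 FPKM in wild type. These passed the filter only through the lines, so they are described and not counted as support. Other such loci among the 14 were not counted out. All 8 that fell were H2B loci of 1 assembled gene. In the same fit, 7 loci of that gene were called lower in the A4-labelled libraries and none in A9. Without wild-type replicate 2, 13 of those 22 calls were made.

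The lines differed most from each other. In the A4-labelled libraries, 39 of 101 histone loci were lower than in A9 (38.6%), where 8.13% of all loci were lower, and 4 were higher, where 9.91% of all loci were higher. The lower loci came from every type, with 8 of 20 for H1, 9 of 22 for H2A, 11 of 26 for H2B, 7 of 20 for H3 and 4 of 13 for H4. Of the 39, 2 were under 1 FPKM in the A4-labelled libraries (XLOC_044915 and XLOC_033113), which leaves 37 without them. Median differences were -0.29 for H1, -0.35 for H2A, -0.40 for H2B, -0.25 for H3 and -0.49 for H4, beside -0.02 over all loci tested. Against wild type the same medians were -0.16, -0.21, -0.15, 0.00 and 0.16 in the A4-labelled libraries (all loci -0.04), and 0.12, 0.24, 0.07, 0.13 and 0.53 in A9 (all loci -0.01). The count of 43 fell to 26 without A4 replicate 1, 18 without A4 replicate 2, 19 without A9 replicate 1 and 23 without A9 replicate 3.

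**Figure D2:**
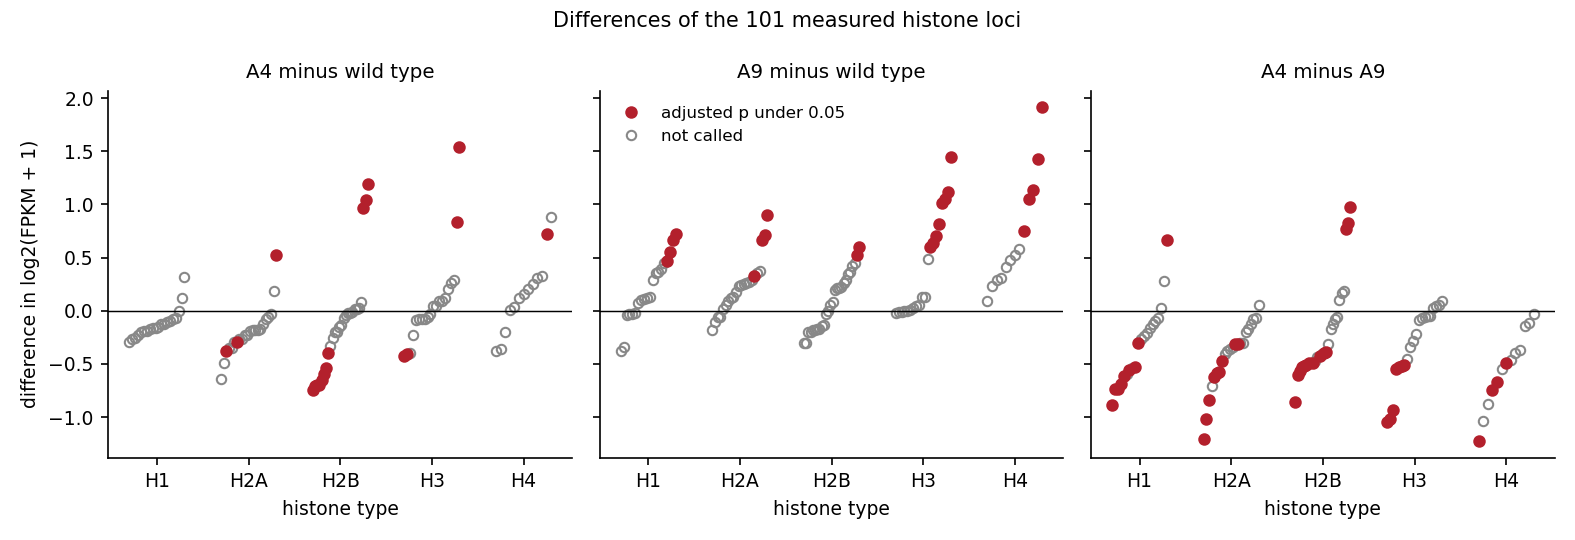
Difference in log2(FPKM + 1) of each of the 101 measured histone loci (vertical axis), ordered by size within its type (horizontal axis), for A4 minus wild type, A9 minus wild type and A4 minus A9. Filled red points passed an adjusted p under 0.05 and open points did not: 23 filled points lie above 0 and none below in A9 minus wild type, and 39 of 43 lie below 0 in A4 minus A9.

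Because loci of 1 gene share reads, the FPKM of all histone loci with the same closest tomato protein were also summed and tested among 14288 such sums. All 24 histone proteins could be tested. In the A4-labelled libraries, 2 of the 24 rose and 3 fell. Together this was a smaller share than the 40.6% of all sums called in either direction. Without wild-type replicate 2 or A4 replicate 2, 3 calls were made in place of these 5. In A9, 4 of the 24 rose and none fell by this limma test. This was a smaller share than the 26.7% of all sums called in either direction. Shares of all sums by direction are not given here. The A9 count was 2 when wild-type replicate 1 or 2 or A9 replicate 1 or 3 was left out, 7 when A9 replicate 2 was, and 8 with quantile normalization. Between the lines 11 of the 24 differed, where 25.5% of all sums were called in either direction. Of these 11, 10 were lower in the A4-labelled libraries, a split with no share of all sums beside it. Between the lines, 5 of the 24 differed without A4 replicate 2 and 7 without A9 replicate 1.

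**Figure D3:**
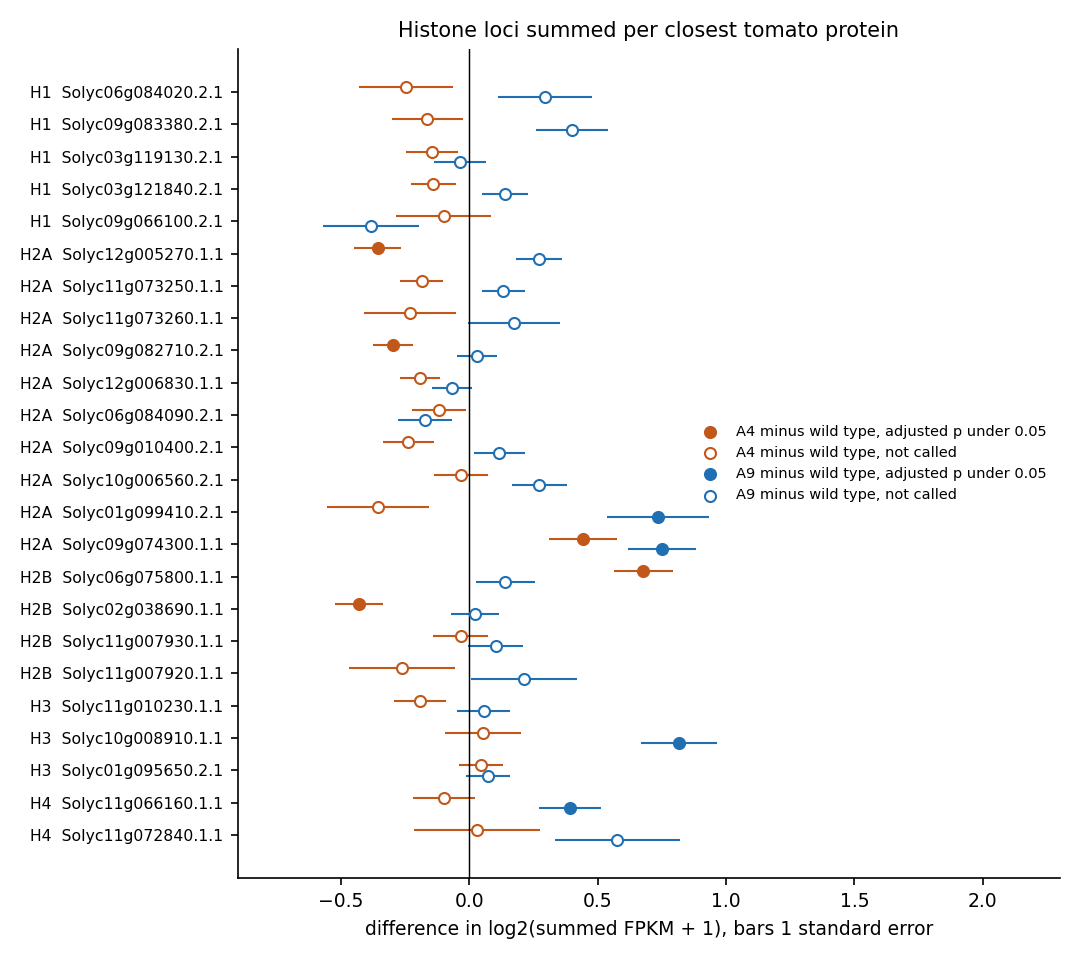
Difference from wild type in log2(summed FPKM + 1) (horizontal axis) for the 24 tomato proteins matched by histone loci (vertical axis, by type and level), in A4 (orange) and A9 (blue). Bars are 1 standard error, and filled points passed an adjusted p under 0.05. The filled points are 5 in A4, with Solyc06g075800.1.1 (H2B) highest at 0.68, and 4 in A9, with Solyc10g008910.1.1 (H3) highest at 0.82.

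H2B pairs with H2A on the outside of the nucleosome core, and its loci moved both ways in the A4-labelled libraries. Locus XLOC_034128, whose encoded stretch of 91 residues is identical to tomato Solyc06g075800.1.1, stood at 67.3, 83.4 and 60.7 FPKM in the wild type, 122, 131 and 161 FPKM in the A4-labelled libraries, and 79.0, 81.1 and 79.9 FPKM in A9. Every A4-labelled library was above every other library. The difference from wild type was 0.96 (SE 0.14, adjusted p = 0.00103), and that from A9 was 0.77 (SE 0.14, adjusted p = 0.0071). Its neighbours in the assembly behaved alike: XLOC_034129 rose from 61.8 ± 9.48 to 128 ± 20.0 FPKM (difference 1.04, SE 0.15, adjusted p = 0.000966), and XLOC_034130 from 42.5 ± 9.14 to 97.9 ± 17.5 FPKM (difference 1.19, SE 0.17, adjusted p = 0.000975). In A9 these 2 loci stood at 71.3 ± 6.62 and 48.9 ± 2.61 FPKM and were not called (adjusted p = 0.361 and 0.411). The 3 loci come from 1 contig cluster and match the same protein, so they are not independent. Their calls in the A4-labelled libraries held without any single library (highest adjusted p = 0.00568). Together they made up 28.95% to 35.0% of all H2B FPKM in the wild type, 50.5% to 56.0% in the A4-labelled libraries and 30.7% to 36.1% in A9.

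The remaining H2B loci summed to 402, 383 and 360.1 FPKM in the wild type, 311, 314 and 337 FPKM in the A4-labelled libraries, and 449, 373 and 368 FPKM in A9. Without the 3 risen loci, H2B was therefore lowest in the A4-labelled libraries, as H1, H2A and H3 were. Most of the falling loci belonged to 1 assembled gene of 19 loci, all identical over their matched stretch to Solyc02g038690.1.1, of which 14 were measured and 7 fell. Its locus XLOC_074246 stood at 15.2, 14.4 and 14.1 FPKM in the wild type, 8.13, 8.37 and 9.08 FPKM in the A4-labelled libraries, and 13.9, 11.8 and 12.4 FPKM in A9. The A4-labelled and wild-type libraries did not overlap (difference -0.71, SE 0.08, adjusted p = 0.000389), and the A9 difference of -0.18 was not called (adjusted p = 0.17). XLOC_074238 of the same gene went from 19.6 ± 1.61 to 11.7 ± 1.25 FPKM (difference -0.70, SE 0.11, adjusted p = 0.00154).

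Not every assembly of that gene followed. XLOC_074245 stood at 9.85, 11.3 and 10.7 FPKM in the wild type, 10.4, 9.14 and 12.0 FPKM in the A4-labelled libraries, and 15.9, 16.0 and 17.7 FPKM in A9. Here A9 was above all 6 other libraries (difference 0.60, SE 0.11, adjusted p = 0.00545), and the A4-labelled libraries overlapped wild type. Summed over the gene, Solyc02g038690.1.1 stood at 158 ± 9.34 FPKM in the wild type, 117 ± 7.39 FPKM in the A4-labelled libraries (difference -0.43, SE 0.09, adjusted p = 0.00633) and 160.5 ± 17.0 FPKM in A9 (adjusted p = 0.884). XLOC_038482, a less identical match of Solyc06g075800.1.1 at 97.8%, fell from 55.7 ± 4.08 to 42.0 ± 1.73 FPKM in the A4-labelled libraries (difference -0.40, SE 0.11, adjusted p = 0.0204), a call that was not made without wild-type replicate 3, A4 replicate 1 or A4 replicate 2 (adjusted p up to 0.0766). XLOC_074237, at 3.94 ± 0.661 FPKM in the wild type, 2.90 ± 0.268 FPKM in the A4-labelled libraries and 6.08 ± 0.929 FPKM in A9, differed between the lines (difference -0.85, SE 0.13, adjusted p = 0.00313). XLOC_074236, the third highest H2B locus, stood at 73.6 ± 5.94, 74.6 ± 6.19 and 78.2 ± 8.90 FPKM in the wild type, the A4-labelled libraries and A9, with no call in either line (adjusted p = 0.915 and 0.654).

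**Figure D4:**
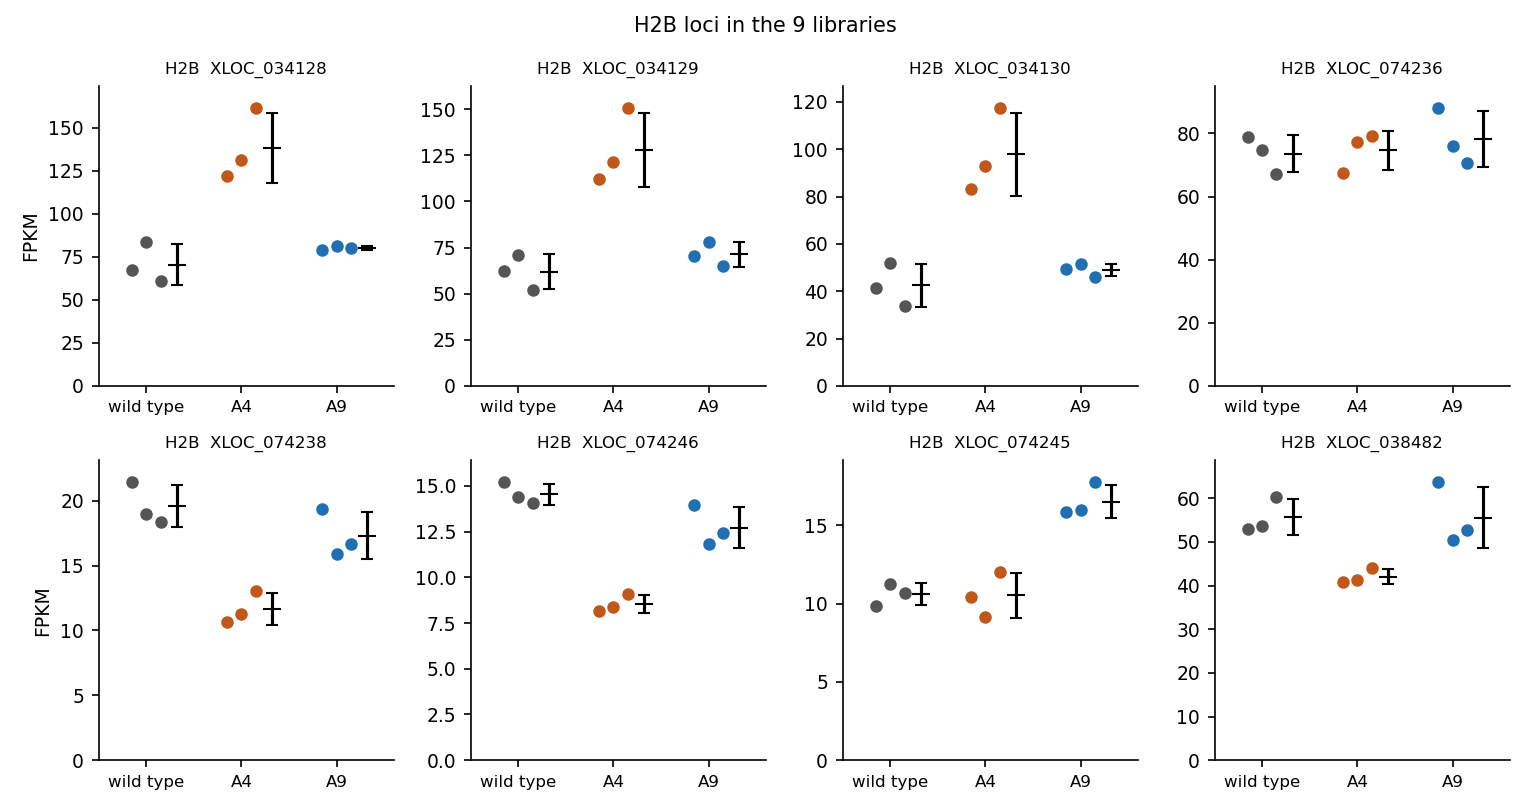
FPKM of 8 H2B loci (vertical axes, linear and starting at 0) in wild type, A4 and A9. Points are the 3 libraries of a group and the bar beside them is the mean with its SD. XLOC_034128, XLOC_034129 and XLOC_034130 stand highest in A4, XLOC_074238, XLOC_074246 and XLOC_038482 lowest in A4, and XLOC_074245 highest in A9 (15.9 to 17.7 FPKM).

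H3 forms the centre of the nucleosome with H4, and its tails carry many of the known chromatin marks. The H3 loci matched 3 tomato proteins at different levels. The high set, 10 loci matching Solyc11g010230.1.1 at 95.7% to 100% identity, held 95.7% of all H3 FPKM and stood at 1106, 1177 and 977 FPKM in the wild type, 901, 926 and 1020.4 FPKM in the A4-labelled libraries, and 1228, 1096 and 1063 FPKM in A9. The sum was not called in either line (differences -0.19 and 0.06, SE 0.10 for both, adjusted p = 0.161 and 0.72). Its highest locus, XLOC_067550, stood at 335, 354 and 295 FPKM in the wild type, 239, 246 and 253 FPKM in the A4-labelled libraries, and 435, 327 and 318 FPKM in A9. The A4-labelled libraries were below all others (difference -0.41, SE 0.13, adjusted p = 0.0408), but the call was not made without wild-type replicate 1 or 2 or without any A4 replicate (adjusted p up to 0.12). XLOC_067557 and XLOC_067549, the next highest assembled genes of the set, were not called and stood in wild type at 214 ± 17.3 and 73.5 ± 6.42 FPKM, in the A4-labelled libraries at 203 ± 22.1 and 69.6 ± 8.14 FPKM, and in A9 at 210.4 ± 7.31 and 73.0 ± 2.67 FPKM.

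A lower set matched Solyc10g008910.1.1 and its sum rose in A9. Its 15 loci together stood at 32.4, 29.0 and 32.9 FPKM in the wild type, 27.0, 30.0 and 42.8 FPKM in the A4-labelled libraries, and 58.0, 52.6 and 57.7 FPKM in A9. The A9 libraries were above all 6 others (difference from wild type 0.82, SE 0.15, adjusted p = 0.00514), a call that held without any single library (adjusted p up to 0.02), and the A4-labelled libraries overlapped wild type (difference 0.05, SE 0.15, adjusted p = 0.798). Of its 10 measured loci, 8 rose in A9 and these were all the H3 rises there, 3 of them being the loci under 1 FPKM in wild type.

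Within this set, XLOC_044913 stood at 3.25, 3.39 and 4.0 FPKM in the wild type, 2.88, 3.80 and 5.10 FPKM in the A4-labelled libraries, and 8.85, 9.12 and 8.50 FPKM in A9 (difference 1.11, SE 0.15, adjusted p = 0.00124). XLOC_064345, from a separate assembled gene, stood at 4.29, 4.40 and 6.71 FPKM in the wild type, 3.62, 5.50 and 5.80 FPKM in the A4-labelled libraries, and 12.2, 9.85 and 11.6 FPKM in A9 (difference 1.01, SE 0.19, adjusted p = 0.00679). In both, A9 stood above the other 6 libraries, which overlapped among themselves. XLOC_044918 and XLOC_044915, alternative assemblies of the gene of XLOC_044913, went in A9 from 1.94 ± 0.348 to 4.18 ± 0.716 FPKM and from 1.13 ± 0.334 to 2.44 ± 0.141 FPKM (adjusted p = 0.00346 and 0.0125). XLOC_067552, also matched to Solyc10g008910.1.1 but lying in the contig cluster of the high set, stood at 14.2 ± 3.33 FPKM in the wild type and 14.5 ± 1.36 FPKM in A9 and was not called (adjusted p = 0.897).

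XLOC_092019 differed from the rest of the H3 loci, with a short and weak match. It was listed at 0, 0.0893 and 0 FPKM in the wild type, 1.71, 1.37 and 3.16 FPKM in the A4-labelled libraries, and 1.80, 1.14 and 2.71 FPKM in A9. Both lines stood above wild type, by 1.54 and 1.45 on the log2(FPKM + 1) scale, and overlapped each other. Its mean passed 1 FPKM only through the lines, so this is a description, and no fold is given because 2 wild-type libraries were at 0. The 9 loci matching Solyc01g095650.2.1 at 71.7% to 78.7% identity summed to 7.05 ± 0.834 FPKM in the wild type, 7.28 ± 0.276 FPKM in the A4-labelled libraries and 7.45 ± 0.291 FPKM in A9 and were not called (adjusted p = 0.707 and 0.56).

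H4, which pairs with H3, rose in A9 at the level of its main tomato protein. The 13 loci matching Solyc11g066160.1.1 summed to 495, 508 and 407 FPKM in the wild type, 441, 416 and 454 FPKM in the A4-labelled libraries, and 719.5, 558 and 577 FPKM in A9. A9 lay above the others (difference from wild type 0.39, SE 0.12, adjusted p = 0.0431), but that call was not made when any library other than A9 replicate 2 was left out (adjusted p up to 0.14). The call against the A4-labelled libraries (difference -0.49, SE 0.12, adjusted p = 0.0194) was not made without A4 replicate 2 or A9 replicate 1 (adjusted p up to 0.0654).

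At single loci the H4 rises were at low levels. XLOC_033113 stood at 0.602, 0.409 and 0.887 FPKM in the wild type, 1.30, 0.539 and 0.837 FPKM in the A4-labelled libraries, and 3.52, 2.77 and 3.90 FPKM in A9, a difference of 1.43 on the log2(FPKM + 1) scale. It passed the filter only through A9, so this too is a description. XLOC_062353 stood at 6.57, 5.72 and 6.86 FPKM in the wild type, 6.29, 7.92 and 10.6 FPKM in the A4-labelled libraries, and 17.0, 10.2 and 16.5 FPKM in A9 (difference 1.05, SE 0.21, adjusted p = 0.0103). That A9 call held without any single library, and the lowest A9 library lay just under the highest A4-labelled library. XLOC_062352, a locus of 275 bases, rose in the A4-labelled libraries from 8.74 ± 1.97 to 15.0 ± 2.01 FPKM (difference 0.73, SE 0.18, adjusted p = 0.0135). In A9 XLOC_062352 stood at 15.3 ± 2.71 FPKM (adjusted p = 0.0184), and this call was not made without wild-type replicate 2, wild-type replicate 3 or A9 replicate 1 (adjusted p up to 0.0549). The largest fitted A9 difference, 1.91 (SE 0.52, adjusted p = 0.0335), belonged to XLOC_062355, a locus of 295 bases, with 13.4, 3.88 and 24.4 FPKM in A9 against 1.51 to 2.98 FPKM in wild type. XLOC_062351 had a difference of 1.13 (SE 0.32, adjusted p = 0.0401). Each of these 2 calls was lost in 6 or 7 of the 9 fits that left out 1 library (adjusted p up to 0.128). The highest H4 locus, XLOC_062349, stood at 242 ± 31.3 FPKM in the wild type, 209 ± 7.66 FPKM in the A4-labelled libraries and 298 ± 57.3 FPKM in A9, with neither line called (adjusted p = 0.319 and 0.202). XLOC_062346, of the second highest assembled gene, differed between the lines, at 52.8 ± 7.43 FPKM in the A4-labelled libraries and 84.3 ± 2.95 FPKM in A9 (difference -0.67, SE 0.13, adjusted p = 0.00849), with wild type between them at 68.1 ± 8.38 FPKM. XLOC_062348 and XLOC_062345, of 266 and 312 bases, were not called in any comparison and stood in wild type at 22.4 ± 9.02 and 12.7 ± 1.44 FPKM.

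H2A, the partner of H2B, was spread over 10 tomato proteins. The most abundant, Solyc12g005270.1.1, stood at 209, 221 and 193 FPKM in the wild type, 168, 151 and 166 FPKM in the A4-labelled libraries, and 271, 228 and 255 FPKM in A9. The 3 groups did not overlap: the A4-labelled libraries were lowest and A9 highest. The fall in the A4-labelled libraries was called (difference -0.36, SE 0.09, adjusted p = 0.0127), the A9 difference was not (0.27, SE 0.09, adjusted p = 0.0523), and the difference between the lines was -0.63 (SE 0.09, adjusted p = 0.00181). Its main locus, XLOC_065201, stood at 133 ± 4.65 FPKM in the wild type, 102 ± 6.23 FPKM in the A4-labelled libraries and 159 ± 17.0 FPKM in A9. A smaller locus of that protein, XLOC_065199, was lower in the A4-labelled libraries (20.7 ± 1.95 FPKM) than in A9 (31.6 ± 1.11 FPKM; difference -0.59, SE 0.09, adjusted p = 0.00426). Solyc09g082710.2.1 stood at 123 ± 6.14 FPKM in the wild type and 99.9 ± 8.51 FPKM in the A4-labelled libraries (difference -0.30, SE 0.08, adjusted p = 0.0149), a call not made without wild-type replicate 2 or A4 replicate 2 (adjusted p up to 0.0541), and at 126 ± 3.09 FPKM in A9 (adjusted p = 0.799).

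The 2 lowest H2A proteins rose in A9. Solyc09g074300.1.1, matched at 75.4% to 75.6% identity, stood at 3.72, 4.49 and 5.40 FPKM in the wild type, 5.52, 7.12 and 6.89 FPKM in the A4-labelled libraries, and 8.65, 7.42 and 8.72 FPKM in A9. Both lines lay above wild type and A9 above the A4-labelled libraries. The differences from wild type were 0.75 in A9 (SE 0.13, adjusted p = 0.0043) and 0.44 in the A4-labelled libraries (SE 0.13, adjusted p = 0.0259), the latter not called without A4 replicate 2 or 3 or wild-type replicate 1 or 2 (adjusted p up to 0.0838). Its main locus, XLOC_083454, had the lowest p of the H2A loci for the mean of both lines, with 2.72 ± 0.577, 4.33 ± 0.662 and 5.89 ± 0.352 FPKM in the wild type, the A4-labelled libraries and A9. Solyc01g099410.2.1 stood at 9.20, 10.7 and 12.8 FPKM in the wild type, 7.28, 6.46 and 11.7 FPKM in the A4-labelled libraries, and 21.4, 16.9 and 17.9 FPKM in A9. A9 lay above all others (difference from wild type 0.74, SE 0.20, adjusted p = 0.0256), but this was not called without wild-type replicate 1 or 2 or A9 replicate 1 or 3 (adjusted p up to 0.0864), while the difference of -1.09 between the lines (SE 0.20, adjusted p = 0.00543) was called without any single library. Its locus XLOC_065202 stood at 5.35 ± 0.735, 3.605 ± 1.22 and 9.46 ± 1.69 FPKM in the wild type, the A4-labelled libraries and A9 (difference between the lines -1.20, SE 0.20, adjusted p = 0.00463). With the replicate block XLOC_065202 was also called lower in the A4-labelled libraries than in wild type (adjusted p = 0.0426 against 0.0879). XLOC_065196, the main locus of Solyc09g082710.2.1, stood at 109.8 ± 4.52, 89.7 ± 7.70 and 111 ± 2.12 FPKM. The abundant H2A loci XLOC_065197 and XLOC_065208 stood at 168 ± 15.3 and 137 ± 21.7 FPKM in the wild type, and neither was called against wild type in either line.

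H1 binds linker DNA and is the least conserved type. Its 2 highest loci, XLOC_002919 and XLOC_002918, stood at 855 ± 134 and 386 ± 80.0 FPKM in the wild type, 715 ± 76.8 and 311 ± 26.9 FPKM in the A4-labelled libraries, and 1069 ± 329 and 510.1 ± 117 FPKM in A9, with no call against wild type. XLOC_002927 and XLOC_034118, the next highest assembled genes, stood at 301 ± 33.6 and 131 ± 15.4 FPKM in wild type and were not called in either line (adjusted p between 0.12 and 0.777). All 4 H1 rises in A9 were low alternative assemblies of the gene of XLOC_002927, which matches Solyc09g083380.2.1. XLOC_002930 stood at 16.9, 13.5 and 15.6 FPKM in the wild type, 12.8, 13.5 and 14.4 FPKM in the A4-labelled libraries, and 31.1, 21.7 and 25.5 FPKM in A9. The A9 libraries lay above the rest (difference 0.72, SE 0.13, adjusted p = 0.00688), and this call held without any single library. The other 3 (XLOC_002923, XLOC_002925 and XLOC_002929) rose by 0.55, 0.47 and 0.67 on the log2 scale, and each lost its call without wild-type replicate 2, wild-type replicate 3 or A9 replicate 3, and XLOC_002923 also without A9 replicate 1 (adjusted p up to 0.0861). XLOC_002924 of the same assembled gene was higher in the A4-labelled libraries (9.52 ± 0.916 FPKM) than in A9 (5.75 ± 1.74 FPKM; difference 0.67, SE 0.16, adjusted p = 0.0235), a call not made without A4 replicate 2 or A9 replicate 2 or 3 (adjusted p up to 0.0785). Summed per protein, neither Solyc06g084020.2.1, with 77.2% of H1 FPKM, nor Solyc09g083380.2.1, with 18.2%, was called against wild type. Solyc06g084020.2.1 was lower in the A4-labelled libraries than in A9 only with the replicate block (difference -0.54, adjusted p = 0.0258, against 0.0586 without it), and Solyc09g083380.2.1 was lower in the A4-labelled libraries than in A9 (difference -0.56, SE 0.14, adjusted p = 0.019), except without A4 replicate 2 (adjusted p = 0.0531).

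**Figure D5:**
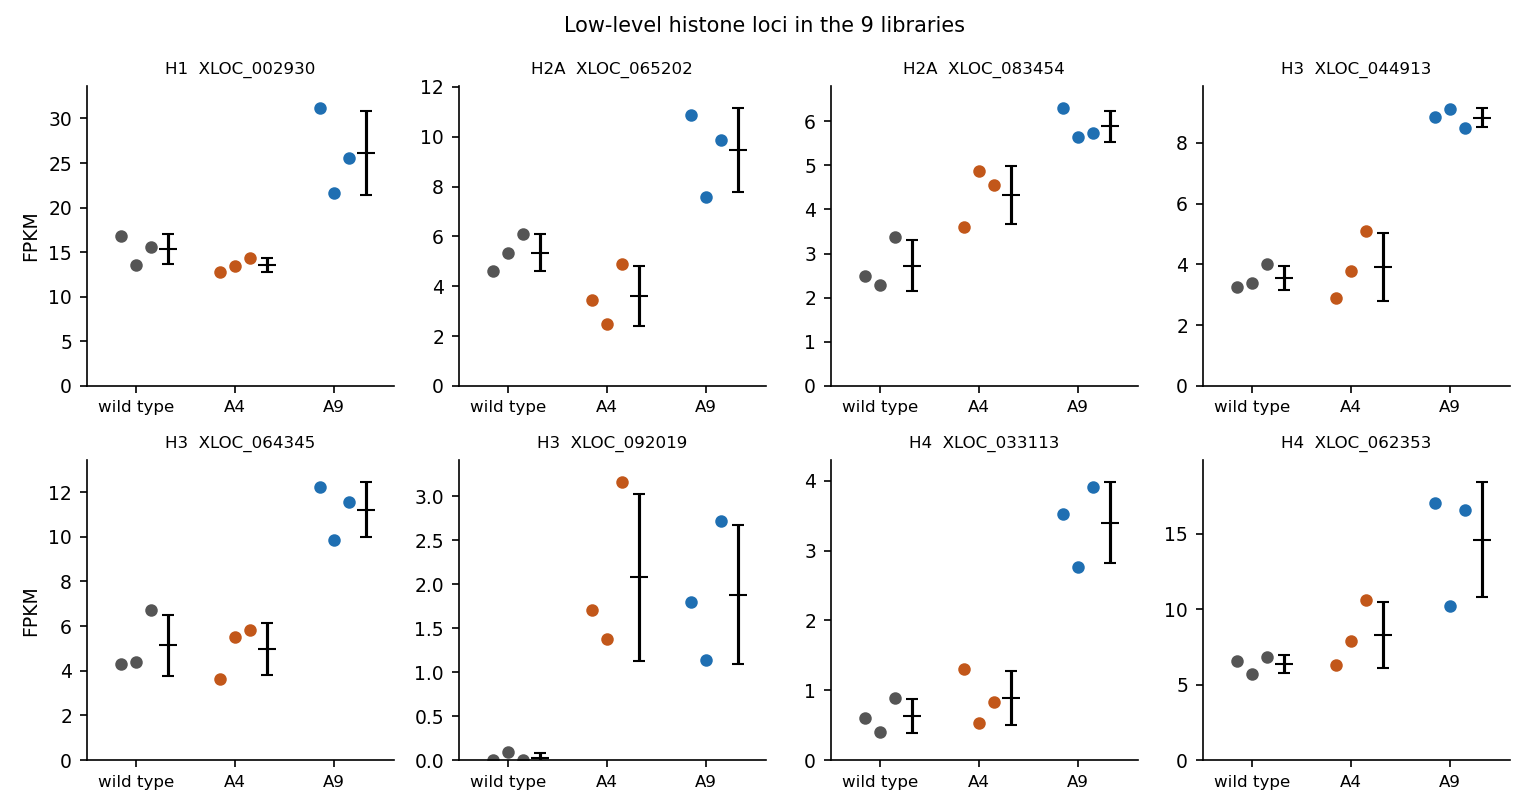
FPKM of 8 low-level histone loci of types H1, H2A, H3 and H4 (vertical axes, linear and starting at 0) in wild type, A4 and A9. Points are the 3 libraries of a group and the bar beside them is the mean with its SD. A9 stands above wild type in all 8 panels, and A4 stands with A9 for XLOC_092019, which was at 0, 0.0893 and 0 FPKM in wild type. The 8 loci were picked for a low p in these data, so their shared direction says nothing about low-level loci in general. XLOC_092019 and XLOC_033113 also passed the filter only through the groups where they were high.

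Genes that act on histones or in dividing cells were read from the same fit, and their counts stand beside the shares of all loci tested: 15.6% rose and 16.6% fell in the A4-labelled libraries, and 8.98% rose and 10.3% fell in A9. Of the histone chaperones, which hand histones to DNA, 3 of 31 measured loci rose in A9 (9.68%), close to the share of all loci. None fell at the adjusted threshold. The 3 were both assemblies of SSRP1 of the FACT complex, XLOC_036520 (4.17 to 5.25 FPKM) and XLOC_036521 (8.76 to 10.8 FPKM), and the nucleosome assembly protein XLOC_019389 (7.03 to 9.24 FPKM). In the A4-labelled libraries, chromatin assembly factor 1 subunit B, XLOC_048133, fell from 5.61 to 4.27 FPKM and 1 nucleosome assembly locus rose (3.23% in each direction, under the shares of all loci). Of 37 high mobility group loci, whose proteins bend or bind nucleosomal DNA, 10 fell (27.0%) and 3 rose (8.11%) in the A4-labelled libraries, and 3 rose in A9 (8.11%). The second most abundant, XLOC_021154, went from 373 FPKM in wild type to 264 FPKM in the A4-labelled libraries (difference -0.49, adjusted p = 0.0033) and stood at 326 FPKM in A9 (adjusted p = 0.17). Of 66 cell cycle loci, 15 rose (22.7%) and 4 fell (6.06%) in the A4-labelled libraries, and 4 rose (6.06%) and 2 fell (3.03%) in A9. Of 69 DNA replication loci, 2 rose (2.90%) and 8 fell (11.6%) in the A4-labelled libraries, and 4 rose (5.80%) and 3 fell (4.35%) in A9, all under the shares of all loci. Counts for the enzymes that modify histones were 1 rise and 3 falls among 65 acetylation loci and 21 rises and 12 falls among 182 methylation loci in the A4-labelled libraries, and 6 rises and 2 falls, and 13 rises and 3 falls, in A9. In both lines these shares were under those of all loci, except for acetylation rises in A9 (9.23%). Chromatin remodelling counted 9 rises and no fall among 103 loci in the A4-labelled libraries, and 1 rise and 5 falls in A9, again under the shares of all loci. Neither of the 2 measured DNA methyltransferase loci was called.

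Markers of dividing cells stood higher in the A4-labelled libraries. Of 36 such loci 14 were measured, and their sum ranged from 52.0 to 72.9 FPKM in the wild type, from 118 to 129 FPKM in the A4-labelled libraries and from 75.0 to 82.2 FPKM in A9. The cyclin B loci, which mark cells entering mitosis, carried most of the difference: they summed to 15.0, 12.0 and 11.9 FPKM in the wild type, 44.0, 53.2 and 72.2 FPKM in the A4-labelled libraries, and 16.4, 12.3 and 21.4 FPKM in A9. Of the 14, 6 rose (42.9%, against 15.6% of all loci) and 1 fell (7.14%) in the A4-labelled libraries, and 2 rose in A9 (14.3%, against 8.98%). All 5 measured cyclin B loci rose there and none was called in A9, where the cyclin A locus XLOC_063665 and the ribonucleotide reductase small chain XLOC_049645 were called higher. Among the markers of DNA synthesis, the PCNA, MCM3 and MCM6 loci were low throughout. The 2 loci of the replication clamp PCNA summed to 3.98 to 4.90 FPKM in the wild type, 5.37 to 6.54 FPKM in the A4-labelled libraries and 5.53 to 8.46 FPKM in A9, without a call. The 4 loci of the helicase subunits MCM3 and MCM6 summed to at most 2.07 FPKM in any library. Other MCM subunits were not part of that sum. No dividing-cell marker was at 0 in all 9 libraries. The list of dividing-cell markers was drawn up with genes that the cell cycle and DNA replication lists also name, such as cyclins and PCNA. The counts of these lists are therefore not independent. Of 52 measured green tissue markers, 21 fell (40.4%, against 16.6% of all loci) and 3 rose (5.77%) in the A4-labelled libraries, and 21 fell in A9 (40.4%, against 10.3%). The list summed to 991 to 1267 FPKM in the wild type, 566 to 930 FPKM in the A4-labelled libraries and 501 to 798 FPKM in A9. Of 11 measured pollen and anther loci, 6 fell (54.5%) and 1 rose (9.09%) in the A4-labelled libraries and 8 fell in A9 (72.7%), and the list's sums were 37.1 to 53.0, 28.2 to 43.1 and 21.4 to 27.8 FPKM. The part of these shifts in the histone results was not tested. The list of corolla genes was drawn up to hold petal MADS-box genes together with anthocyanidin or benzenoid scent enzymes, which were not counted apart. Corolla genes were present in every library and summed to 5067 to 6065 FPKM in the wild type, 4506 to 4813 FPKM in the A4-labelled libraries, all below wild type, and 4420.4 to 5708 FPKM in A9. Of 23 measured corolla loci, 12 rose (52.2%) and 3 fell (13.0%) in the A4-labelled libraries, and 6 rose (26.1%) and 2 fell (8.70%) in A9, so in the A4-labelled libraries the sum was lower while most called loci were higher.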

How the data were processed

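The authors deposited a table of FPKM with a column for each of 9 libraries, and a table of BLAST matches to tomato proteins that, per the file headers, gives identity in percent, a bit score, an e-value and a description. FastQC 0.11.2 and Bowtie2 2.2.6 appear in the submitters' processing notes. The submitters call the locus identifiers Cufflinks identifiers. Beyond that, the sources used here do not give which programs assembled the transcripts and computed FPKM, or whether strand was used. A locus takes its description from its tomato match. Depth was estimated from low values: for loci of 700 to 2000 bases, 100% of the values used, up to 4 fragments, were whole numbers of fragments to within 0.1. At the median length of the measured histone loci, 738 bases, 1 FPKM stood for about 13.7 to 20.0 fragments.

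Sample titles gave each library its group and replicate number. For loci averaging 1 FPKM or more, log2(FPKM + 1) values went into limma 3.58.1 (R 4.3.3), with 3 group means fitted together and a variance trend in the prior. The Benjamini-Hochberg adjustment ran over all loci tested, with calls at 0.05. Because values are FPKM, no count model was run. The fit was tested on simulated data. Sums per tomato protein went through the same fit. The members, lists and tests were chosen with earlier results of these data known, and chance matches were removed from the word-pattern lists after the descriptions had been seen. Named loci were, per type, the 4 highest (1 per assembled gene) and the 3 with the lowest p for both lines against wild type and for A4 against A9; a few assemblies beside these (XLOC_074238, XLOC_074245, XLOC_038482, XLOC_002924, XLOC_062355 and XLOC_062351) were chosen after their values were seen. XLOC_018770 was named as a check of the labels. Other named list loci were likewise chosen after their values were seen.

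Deviations from the group means correlated between same-numbered libraries of A9 and wild type (0.25, 0.34 and 0.10) and of A4 and A9 (0.24, 0.26 and 0.25), which meets the level set for pairing, from the data and not from the labels. The printed calls come from the fit without a block, and the fit with the replicate number as a block was run beside it. Between A4 and wild type the correlations were 0.23, 0.19 and -0.12, under that level. Alternatives changed the scaling, pseudocount (0.1, 0.5), filter (none, at least 5 FPKM), model, unit, members and libraries.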

Additional observations from a re-analysis of the deposited data

Results flagged for a closer look

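Summed over the 5 loci matching the H2A protein Solyc12g005270.1.1, every A4-labelled library (168, 151 and 166 FPKM) lay below every wild-type library (209, 221 and 193 FPKM), and every A9 library (271, 228 and 255 FPKM) lay above them. The difference between the lines was tested and was -0.63 on the log2(FPKM + 1) scale (SE 0.09, adjusted p = 0.00181 with limma, and at most 0.00864 without any single library). It was the only one of the 24 histone proteins whose lines stood on opposite sides of wild type in this way, and this was noticed among those 24 sums. Groups of 3 libraries are too small for a test of outlying libraries.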

How the results depend on the processing

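The calls of histone loci were 19 for A4 with wild type, 23 for A9, 22 for both lines and 43 for A4 with A9. With the replicate block they were 20, 28, 24 and 47, within 1.5 times each, and no direction changed. By type, the block gave 6 in place of 2 calls for H2B in A9. Among named results it gave adjusted p = 0.0523 for XLOC_065197 (A4 with A9), 0.0631 for XLOC_065199 (A9), 0.0346 for XLOC_064345 (both lines) and 0.0258 for Solyc06g084020.2.1 (A4 with A9), which moved these across the threshold. Leaving out 1 library each gave 12 to 20, 12 to 23, 13 to 22 and 18 to 41 calls, the arm left with 2 libraries being tested with the spread of all groups. With a filter of at least 5 FPKM, 14 calls were made for A9, of 76 loci tested. Per tomato protein 5, 4, 3 and 11 of 24 sums were called, and per assembled gene 12, 9, 10 and 22 of 55. Fewer features are tested there, and no share over all assembled genes is given beside these counts. Calls of tomato proteins, tried after seeing the data, ranged over the left-out libraries from 3 to 6, 2 to 7, 1 to 3 and 5 to 12, and under quantile normalization were 3 for A4 and 8 for A9. The related lists had 90, 49, 81 and 68 calls, with 168, 80, 136 and 108 with no filter, 35, 26, 35 and 17 at 5 FPKM, 44 for A4 with A9 from those 2 groups alone, and 64 to 88, 26 to 49, 45 to 76 and 39 to 63 over the left-out libraries. Matches with an e-value of at most 1e-10 lowered the H1 sum to 1609 FPKM for wild type and 1386 FPKM for the A4-labelled libraries. Loci of at least 300 bases gave H2A sums of 793, 677 and 859 FPKM in wild type, the A4-labelled libraries and A9, and an H4 sum of 390 FPKM in the A4-labelled libraries. For named loci and proteins, no called direction reversed under an alternative; for named loci, the alternatives lost 119 calls, gained 17 and left 2272 results as they were. The cause of these shifts was not tested. Depth limits loci near 1 FPKM, and short loci, whose length correction is uncertain.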
